A study of Mus musculus with 4 samples.

Results

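Stra8 and Dazl bring mouse germ cells into meiosis. Both genes were examined base by base in DNA methylation data from testicular germ cells of Np95 knockout and control mice. They are 2 of the 21627 protein-coding genes of the gene table on chromosomes 1 to 19 and X. They were chosen because CpGs at their starts had shown more methylation in knockouts than in controls in these same samples, although nearly all of the genome showed less. The knockout minus control difference at either gene is therefore a description here, with no test. Each gene was taken with 10 kb on either side, which is chromosome 6 from 34910163 to 34949344 for Stra8 and chromosome 17 from 50269393 to 50303620 for Dazl (mm10).

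Whole-genome bisulfite libraries had been made by post-bisulfite adaptor tagging from male germ cells of 21-day-old mice. The 2 knockout samples carried floxed Np95 alleles together with the transgene Stra8-Cre, and the 2 control samples carried the floxed alleles alone. Np95, also named Uhrf1, brings the methyltransferase Dnmt1 to freshly replicated DNA. Its own RNA and protein were not measured here, so its loss could not be checked at the gene itself. Cre in this design is driven by Stra8 promoter sequence, so that only knockouts hold an added copy of part of 1 of the genes under study. How much Stra8 sequence the transgene holds is not given in the sources used here, and reads from it and from the native gene cannot be told apart. The cells came from tubules picked by hand and passed through a 95 µm mesh, with no sort for a germ cell type. The labels do not say whether samples sharing a genotype are different animals, so p-values measure only how far these samples differ, and that may be technical in origin.

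Stra8 is induced in premeiotic germ cells by retinoic acid. Its protein acts together with Meiosin as a transcription factor that switches on meiotic genes, and mice without it do not enter meiosis normally. Dazl encodes an RNA-binding protein of the DAZ family that raises translation of germ cell mRNAs and makes germ cells able to answer retinoic acid. Both genes belong to the germ cell programme. The Dazl promoter is one of a class of CpG-rich germ cell promoters that are unmethylated in germ cells and methylated in many somatic tissues.

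The sequences at both gene starts are shown because, in the main setting, the gain at Stra8 began within the stretch and the gain at Dazl covered the whole of it. They run from 250 bases before to 50 bases after the start of the transcript and come from RefSeq (GRCm38.p6, the assembly of mm10). CpGs are in capitals.
Stra8, chr6:34920698-34920997, plus strand: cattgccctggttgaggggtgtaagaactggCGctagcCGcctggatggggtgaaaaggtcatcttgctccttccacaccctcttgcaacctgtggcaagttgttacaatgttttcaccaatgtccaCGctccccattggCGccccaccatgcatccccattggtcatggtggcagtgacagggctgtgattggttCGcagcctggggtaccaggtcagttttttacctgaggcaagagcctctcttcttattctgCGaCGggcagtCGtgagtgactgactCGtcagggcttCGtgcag
Dazl, chr17:50293571-50293870, minus strand: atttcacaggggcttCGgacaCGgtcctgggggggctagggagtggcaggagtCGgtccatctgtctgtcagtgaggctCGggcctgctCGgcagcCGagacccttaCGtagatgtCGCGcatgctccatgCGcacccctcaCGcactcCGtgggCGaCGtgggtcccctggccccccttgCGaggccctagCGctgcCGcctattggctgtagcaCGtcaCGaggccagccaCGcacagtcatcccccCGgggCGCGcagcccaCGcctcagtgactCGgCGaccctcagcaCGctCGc
The Stra8 stretch holds 10 CpGs and has 55.7% G and C, and the Dazl stretch holds 28 CpGs and has 68.7% G and C. All of these CpGs are listed in the deposited table and had a value in all 4 samples. AGGTCA, the core of retinoic acid response elements, was found at 2 places in the Stra8 stretch, its first base at -194 and -38 from the gene start, and nowhere in the Dazl stretch on either strand. Of the 32851 promoter stretches of this length, 16.3% hold it. CNCCTCAG, a motif reported for STRA8 binding, was found 1 time in the Dazl stretch, its first base at 15 from the gene start, and not in the Stra8 stretch, and 7.94% of all stretches hold it. The E-box CACGTG and the E2F-like GGCGGG were in neither, and 7.15% and 35.3% of all stretches hold them. CCAAT was found 4 times at Stra8 and 1 time at Dazl, and 37.4% of all stretches hold it. These matches are letters found on either strand, not binding sites shown by these data, and none of the 5 motifs' matches was compared with the methylation values.

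Methylation in the CpG island of Stra8 was low in controls and higher in both knockouts. This island is a run of at least 30 listed CpGs per 500 bp on chromosome 6 from 34921190 to 34922051. It lies inside the gene, 242 to 1103 bp after the gene start. Over 64 of its cytosines with a value in all 4 samples, the mean level was 24.9% and 12.9% in knockouts 1 and 2, against 5.72% and 1.94% in controls 1 and 2. The groups did not overlap, but the knockouts lay further apart than the controls. The difference was 15.1 points, with 18.9% ± 8.48 in knockouts and 3.83% ± 2.67 in controls (SD, n = 2 each). Leaving out knockout replicate 1 gave 9.06 points, and leaving out knockout replicate 2 gave 21.1. Among the 15046 islands under 20% in controls, 21.1% had both knockouts above both controls, and 0.645% had this together with group means at least 10 points apart.

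The gain at Stra8, taken in windows of 250 bp, began close to the gene start and ended beyond the island. Over 10 successive CpGs and in windows of 100 bp it began later, at 256 and 253 bp after the gene start. In windows of 250 bp with at least 3 cytosines measured in all samples, 6 adjoining windows had both knockouts above both controls. They cover chromosome 6 from 34920751 to 34922250, which is -197 to 1302 bp from the gene start at 34920948. Over the whole genome 2.37% of 2760283 such windows had both knockouts above both controls. Among windows under 20% in controls the share was 27.7%.

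Within this run the groups differed most in the 3 middle windows. The window at the gene start, centred at -72.5 bp, was at 11.0% and 11.9% in knockouts, against 6.22% and 6.69% in controls. The window centred at 427.5 bp was at 29.1% and 13.2% in knockouts, against 7.54% and 2.02% in controls. Those centred at 677.5 and 927.5 bp differed by 15.0 and 15.7 points. The last window of the run, centred at 1177.5 bp, was at 8.26% and 2.83% in knockouts, against 0.568% and 2.17% in controls. The 3 middle windows, 303 to 1052 bp after the gene start, were those whose group means differed by at least 10 points. Of windows under 20% in controls, 6.29% had this together with both knockouts above both controls.

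On both sides of the run the next measured window had less methylation in knockouts. On the upstream side this window, centred at -572.5 bp, was at 22.9% and 26.4% in knockouts, against 37.1% and 42.5% in controls. It did not adjoin the run, and the stretch between them had too few measured cytosines for a window. At the CpGs measured there, at -219 and -212 bp, the groups overlapped, with means 16.7 and 15.9 points higher in knockouts. The upstream edge was therefore not bounded directly by a loss. On the downstream side the next window, centred at 1427.5 bp, was at 11.2% and 12.2% in knockouts, against 16.2% and 15.8% in controls. Over 10 successive CpGs at a time, both knockouts exceeded both controls from 256 to 1316 bp. The largest difference of this kind was 22.4 points, between 653 and 750 bp, where knockouts were at 39.5% and 14.9% and controls at 8.50% and 1.07%. With windows of 100 bp the run was 500 bp long, from 253 to 752 bp, so that both edges depended on the window.

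The sequence farther upstream of Stra8 had no such run. From 1000 to 200 bp before the gene start the level was 19.4% and 19.7% in knockouts, against 24.7% and 29.3% in controls. From 2000 to 1000 bp before it the groups overlapped, at 28.7% and 20.1% in knockouts and 18.4% and 25.9% in controls. From 5000 to 2000 bp before it the level was 44.0% and 48.8% in knockouts, against 85.6% and 90.6% in controls. In the last 200 bp before the gene start, with 6 cytosines measured, it was 14.9% and 16.1% in knockouts, against 5.24% and 6.58% in controls. The 500 bp after the gene start were at 19.8% and 9.72% in knockouts, against 6.81% and 3.92% in controls. The next 500 bp were at 23.7% and 14.6% in knockouts, against 6.15% and 2.43% in controls.

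**Figure D1:**
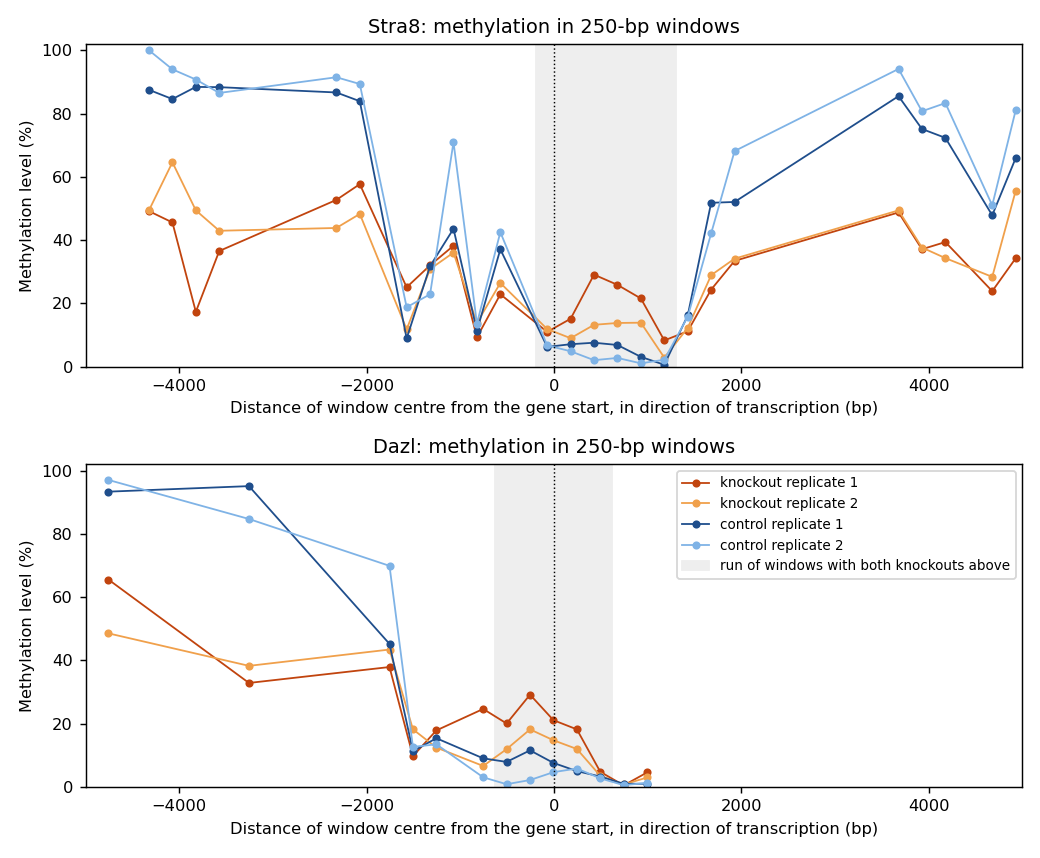
Mean methylation level (%) in 250-bp windows by distance from the gene start (bp, in the direction of transcription), 1 line per sample, with the run of windows that had both knockouts above both controls shaded. At Stra8 the run lies from -197 to 1302 bp and at Dazl from -630 to 619 bp, with lower knockout levels farther out on the measured sides.

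Dazl also had higher levels in both knockouts around its start. Its CpG-rich gene end, chromosome 17 from 50293120 to 50294620, was at 21.1% and 13.8% in knockouts, against 7.86% and 4.03% in controls, over 138 cytosines. The groups did not overlap, and knockout replicate 1 was again the highest sample. The difference was 11.5 points, with 17.4% ± 5.19 in knockouts and 5.94% ± 2.71 in controls (SD, n = 2 each). Leaving out knockout replicate 1 lowered it to 7.82 points, and leaving out knockout replicate 2 raised it to 15.2.

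The Dazl gain lay across the gene start and filled only part of its island. Over the whole island, 223 cytosines, the level was 12.9% and 8.66% in knockouts, against 5.0% and 2.84% in controls, a difference of 6.85 points, against 15.1 points at the Stra8 island. Over the window from 1000 bp before to 500 bp after the gene start the order was the other way, with 11.5 points at Dazl and 3.09 points at Stra8, where knockouts were at 19.2% and 14.0% and controls at 13.4% and 13.7%. Which gene had the larger difference therefore depended on the region. The run held 5 windows on chromosome 17 from 50293001 to 50294250, which is -630 to 619 bp from the gene start at 50293620. The window centred at -255.5 bp had the largest difference, 16.8 points, with 29.1% and 18.1% in knockouts against 11.5% and 2.14% in controls. The window across the gene start was at 21.1% and 14.7% in knockouts, against 7.55% and 4.63% in controls. Without knockout replicate 2 the run was 2000 bp long and reached -1380 bp.

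On the gene side the gain ended within the island, which runs from 50292437 to 50294238. From 500 to 1000 bp after the gene start, 90 cytosines of the island were at 0.937% and 0.728% in knockouts, against 0.847% and 1.02% in controls, so the groups overlapped near 0. From 1 to 500 bp after it the level was 19.8% and 13.9% in knockouts, against 7.11% and 6.02% in controls. The window centred at 244.5 bp was at 18.2% and 11.9% in knockouts, and that centred at 494.5 bp at 4.73% and 3.47%, while controls were at 4.96% and 5.78% in the first and 3.24% and 2.66% in the second. Upstream, the window centred at -755.5 bp was at 24.6% and 6.58% in knockouts and 8.99% and 3.0% in controls, so that the groups overlapped. A separate window outside the run, centred at 994.5 bp with 4 cytosines, also had both knockouts above, at 4.55% and 2.94%, against 0.962% and 1.25% in controls.

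The runs were picked by this contrast in these cytosines, so the count of single CpGs in them describes the scatter and is no further evidence. In the Stra8 run, 40 of 67 CpGs had both knockouts above both controls, and in the Dazl run 65 of 88 did. Over the genome 2.42% of CpGs had both knockouts above both controls, and 15.0% of those under 20% in controls did. All CpGs of both runs were under 20% in controls. At Stra8 the single CpGs ranged from 0% to 54.5% (median 21.4%) in knockout 1 and from 0% to 31.2% (median 10.3%) in knockout 2, against 0% to 16.7% (median 5.51%) in control 1 and 0% to 10.4% (median 0%) in control 2. At Dazl they ranged from 0% to 40.0% (median 19.6%) in knockout 1 and from 0% to 28.1% (median 12.1%) in knockout 2, against 0% to 19.4% (median 6.55%) in control 1 and 0% to 14.6% (median 3.08%) in control 2. Neighbouring CpGs share reads and are not independent.

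**Figure D2:**
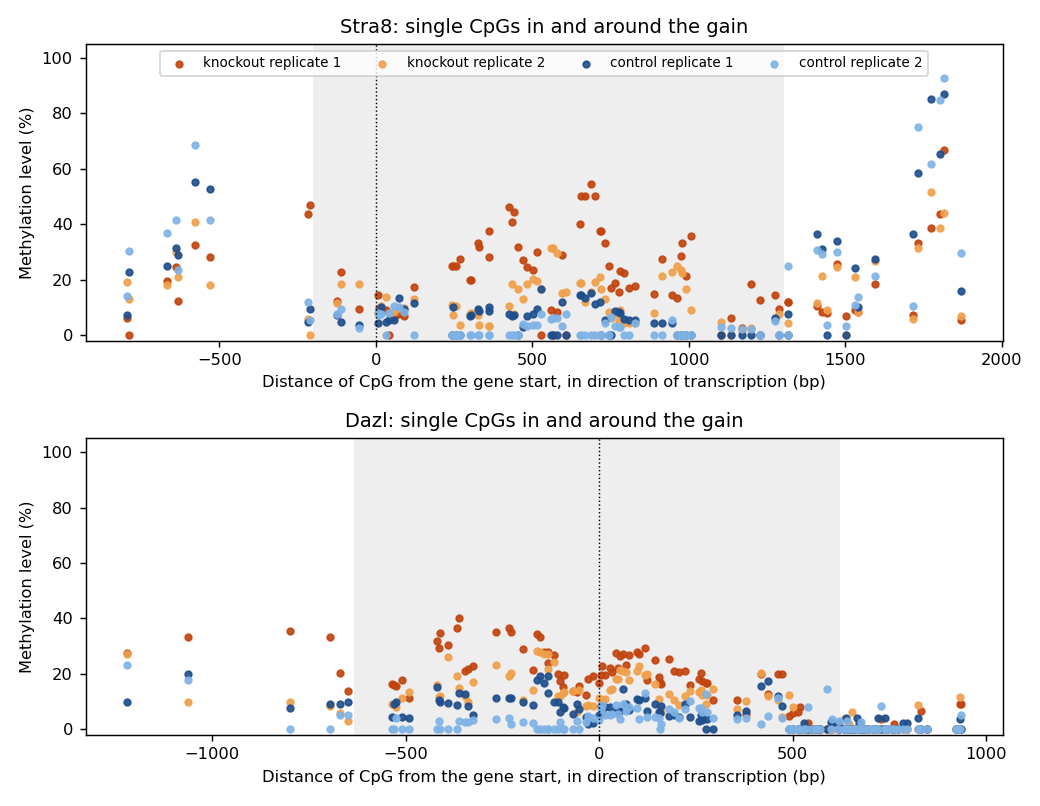
Methylation level (%) of each CpG with a value in all 4 samples, averaged over its measured cytosines, by distance from the gene start (bp, in the direction of transcription), with points coloured by sample and the run of gained windows shaded. At Stra8 the knockout points reach 54.5% in the run while no control point in it is above 16.7%, and at Dazl most points beyond 619 bp lie near 0 in all samples.

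In the printed Stra8 stretch, the 3 CpGs between -123 and -54 bp, which lie in the run, were between 9.52% and 22.7% in knockouts and between 2.63% and 9.55% in controls. The 2 CpGs farther upstream, at -219 and -212 bp, were at 43.8% and 46.9% in knockout 1 but at 5.88% and 0% in knockout 2, against 4.55% and 9.52% in control 1 and 11.8% and 5.56% in control 2. The CpGs from 6 to 43 bp after the gene start, also in the run, showed little difference. They were between 0% and 14.4% in knockouts and between 0% and 10.1% in controls. Of these, only the CpG at 32 bp had both knockouts above both controls. The printed Dazl stretch as a whole was at 21.8% and 14.4% in knockouts, against 8.27% and 3.08% in controls.

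Both strands showed higher mean levels in the knockouts over the runs, but knockout 2 and control 2 lay close on the reverse strand at both genes. At Stra8 the forward cytosines were at 23.9% and 13.7% in knockouts, against 6.10% and 0.666% in controls, over 60 cytosines. The 35 reverse cytosines were at 13.6% and 7.77% in knockouts, against 4.79% and 7.46% in controls, so knockout 2 and control 2 nearly met there. At Dazl the 88 forward cytosines were at 17.3% and 15.7% in knockouts, against 8.08% and 2.31% in controls. The 74 reverse cytosines were at 17.7% and 6.71% in knockouts, against 4.69% and 5.35% in controls. Over the 28 Stra8 CpGs measured on both strands, forward minus reverse was 0.825 and 8.82 points in knockouts, against -0.000555 and -7.42 in controls. Over 74 such CpGs at Dazl it was -2.51 and 8.29 points in knockouts, against 2.6 and -2.74 in controls. The gap between knockout 2 and control 2 was thus mostly on the forward strand.

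The number of cytosines that reached a value gives the only trace of depth, since the reads behind each value are unknown. In the Stra8 island 60.7% and 89.3% of 112 listed cytosines had a value in knockouts 1 and 2, against 91.1% and 83.9% in controls. Knockout 1, the sample with the highest island level, was thus the sample with the fewest values there. Over the Dazl run the shares were 96.2% and 96.8% in knockouts and 94.1% in both controls. Over the whole table each sample had at least 77.9%.

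**Figure D3:**
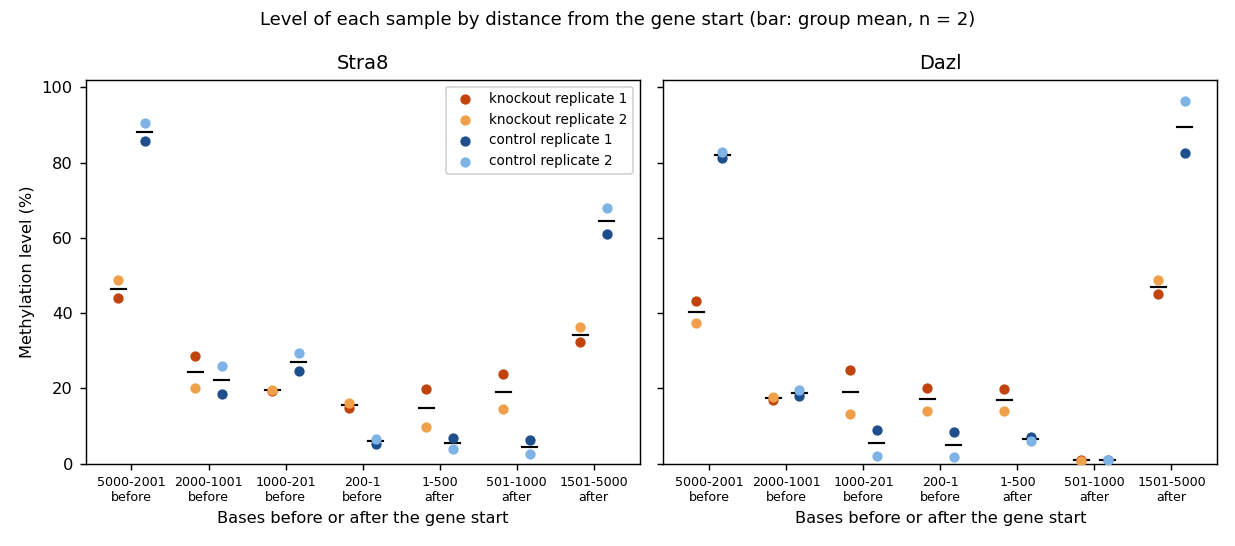
Methylation level (%) of each sample in segments by bases before or after the gene start at Stra8 (left panel) and Dazl (right panel), with knockouts left of controls and a bar at each group mean (n = 2). The knockouts lie above the controls from 200 bp before to 1000 bp after the Stra8 start and from 1000 bp before to 500 bp after the Dazl start, and below them 5000 to 2000 bp before both.

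Away from the runs both loci had less methylation in knockouts. Of the 92 measured Stra8 windows outside the run, 79 had both knockouts below both controls, 13 overlapped and 0 had both above. Of the 25 such Dazl windows 20 were below, 4 overlapped and 1 was above. Over the genome 91.3% of windows had both knockouts below. The Stra8 locus outside its run, 762 cytosines, was at 34.7% and 34.8% in knockouts, against 58.2% and 62.3% in controls, and so retained 57.7% of the control level. The Dazl locus outside its run, 243 cytosines, was at 28.9% and 29.5% in knockouts, against 52.4% and 54.2% in controls, and retained 54.8%.

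The gene body of Stra8 was at 45.1% and 49.7% in knockouts, against 78.9% and 83.4% in controls. It retained 58.4%, which is above 78.7% of the 14591 gene bodies with a control level of at least 50% (median 55.4%). At Stra8 71 of 72 windows with a control level of at least 50% had both knockouts below both controls and at Dazl 20 of 20, against 99.7% over the genome. In these windows the retained share ran from 37.2% to 76.6% at Stra8 and from 29.4% to 71.5% at Dazl, with medians of 56.6% and 54.5%. The median of such windows over the genome was 52.8%, with 37.4% at the 5th and 68.7% at the 95th percentile. The body of Dazl is poor in CpGs and only 4 of its cytosines were measured in all samples.

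The unmethylated start next to Stra8 did not separate the groups. That of Wdr91, which encodes a WD repeat protein of endosomes and lies upstream of Stra8, was at 1.40% and 1.46% in knockouts, against 1.26% and 1.62% in controls, over 68 CpGs. Slc23a4 reaches into the locus on the other side of Stra8, but its start, from 34977499 to 34978999, lies beyond the locus. That start, with 14 CpGs, was methylated in controls and stood at 44.6% and 46.6% in knockouts, against 87.1% and 94.1% in controls. No other gene of the table lies within the Dazl locus.

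Gains in unmethylated islands were often larger in knockout replicate 1. The 97 islands under 20% in controls that had both knockouts above both controls, with group means at least 10 points apart, averaged 21.3% and 15.9% in knockouts, against 6.55% and 5.71% in controls. Knockout 1 exceeded knockout 2 at 81.4% of them and at 52.6% of all 15046 islands under 20%. The 97 were picked by the same contrast, so these values describe them only.

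Few other genes of the path into meiosis were called at their CpG-rich ends. Such an end was tested in 34 of 43 listed genes, Dazl among them, and of the other 33 limma called 0 higher and 1 lower. A call needed 10 points or more with an adjusted p under 0.05, which was met by 0.253% (higher) and 11.5% (lower) of all 13018 ends. At an unadjusted p under 0.05, 4 were higher and 8 lower, against 4.79% and 29.8% of all ends. The median difference was -0.205 points, against -0.285 points over all ends. At an adjusted p under 0.05 by limma and no minimum difference, 4 were higher (Sohlh2, Sohlh1, Meioc and Meiosin), against 2.25% of all ends. By the same rule 5 were lower (Rara, Rarb, Rarg, Rxra and Ythdc2), against 21.3% of all ends.

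Sohlh1 and Sohlh2, transcription factors of differentiating spermatogonia, came closest to a call. Sohlh2 was at 17.8% and 15.3% in knockouts, against 8.08% and 6.17% in controls (adjusted p = 0.00245 by limma). Sohlh1 was at 18.8% and 13.6% in knockouts, against 8.0% and 8.17% in controls (adjusted p = 0.00958 by limma). Without control replicate 1 Sohlh2 was called, and without knockout replicate 2 both were. Meioc, which with Ythdc2 sustains the meiotic programme through RNA, was at 12.2% and 8.51% in knockouts, against 6.83% and 3.54% in controls. Meiosin, the partner of Stra8 and named Bhmg1 in the gene table, was at 4.73% and 6.59% in knockouts, against 3.34% and 2.04% in controls.

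Among receptors for retinoic acid, Rara and Rarg had low ends. Rarg, the retinoic acid receptor of spermatogonia, was at 3.65% and 3.53% in knockouts, against 6.05% and 7.20% in controls, and Rara at 10.9% and 9.76% in knockouts, against 16.5% and 16.6% in controls, both short of 10 points. In the window at its transcript start Rara was at 0.804% and 0.691% in knockouts, against 1.37% and 0.985% in controls (adjusted p = 0.118 by limma). Rarb was the gene called lower, at 64.7% and 65.1% in knockouts, against 94.1% and 88.3% in controls, on only 5 CpGs. Leaving out either knockout ended the call, with limma adjusted p = 0.0769 for knockout 1 left out and 0.0713 for knockout 2. The window at its transcript start was at 0.735% and 1.07% in knockouts, against 0.959% and 1.02% in controls. Ythdc2 was at 3.90% and 5.03% in knockouts, against 9.63% and 10.8% in controls. Kit, the receptor of differentiating spermatogonia, was at 0.981% and 0.845% in knockouts and 1.62% and 0.955% in controls, and Boll, a relative of Dazl, was at 1.38% and 1.33% in knockouts and 1.38% and 1.43% in controls.

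For named genes without a CpG-rich end the window from 1000 bp before to 500 bp after the transcript start was used. Rec8, a meiotic cohesin subunit and a second gene that retinoic acid induces, was at 10.3% and 4.63% in knockouts and 5.92% and 7.65% in controls, so the groups overlapped. Nanos2, an RNA-binding protein that keeps male germ cells out of meiosis, was at 39.2% and 32.2% in knockouts, against 72.7% and 76.8% in controls. Cyp26b1, an enzyme that degrades retinoic acid, was at 36.9% and 50.2% in knockouts, against 80.8% and 88.4% in controls. Both were called lower by limma over all such windows (adjusted p = 0.000237 and 0.000339), as were 24.2% of these windows. Dmrt1 had no tested window of either kind.

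Germ cell genes of the kind Dazl belongs to had positive differences at most of their ends, though few were called. Besides Dazl 23 were tested, of which 21 had a positive difference, against 29.8% of all ends, and limma called 3 higher and 1 lower. Among all ends 0.253% were called higher and 11.5% lower. The median difference was 7.09 points. With no minimum difference 12 had an adjusted p under 0.05 and a positive difference, against 2.25% of all ends. The list overlaps with genes already seen to gain in these samples and is no independent evidence.

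Mael, of the piRNA pathway, was at 14.9% and 18.4% in knockouts, against 1.68% and 6.51% in controls. Sycp3, an axis protein of meiotic chromosomes whose mRNA Dazl binds, was at 17.4% and 16.9% in knockouts, against 4.46% and 8.37% in controls. Sycp1, of the synaptonemal complex, was at 17.5% and 11.9% in knockouts, against 5.10% and 4.2% in controls. These 3 were the ends called higher (adjusted p = 0.0292, 0.00286 and 0.00102 by limma), and each call was lost when some sample was left out, namely either knockout for Mael, control replicate 1 for Sycp3, and control replicate 2 or knockout replicate 1 for Sycp1. The number called higher was 6 and 2 without controls 1 and 2, and 1 and 8 without knockouts 1 and 2. On each end's own spread 0 were called. Piwil2, another piRNA pathway gene, was the end called lower, at 41.4% and 41.2% in knockouts, against 69.9% and 75.3% in controls. Ddx4, a germ cell RNA helicase, was at 18.4% and 7.47% in knockouts and 13.5% and 11.3% in controls, so the groups overlapped.

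Ends of genes with maternally methylated imprints were set beside these values. The imprint itself is absent from male germ cells and present on the maternal copy in somatic cells, but a tested end need not cover it, and 2 of the 13 ends were at 20% or more in controls. The 11 such ends under 20% in controls averaged 9.53% and 6.89% in knockouts, against 6.19% and 4.99% in controls. Both knockouts were above both controls at 6 of the 11, against 13.9% of all ends under 20%. Both were below at 1, Inpp5f, at 8.30% and 5.83% in knockouts, against 10.4% and 10.5% in controls. The others overlapped, and the differences of the 11 ran from -3.38 to 6.85 points. Of all 13 tested ends limma called 0 higher (5 at an unadjusted p under 0.05) and 2 lower. Over all 13018 gene ends the shares were 0.253% higher (4.79% at an unadjusted p under 0.05) and 11.5% lower. The part of somatic DNA in the Stra8 and Dazl values was not tested, and in bulk DNA a change in all cells and a change in the share of some cells cannot be told apart. The lower ends were Snrpn, on 5 CpGs, at 36.3% and 30.4% in knockouts, against 65.6% and 64.9% in controls, and Fkbp6 at 10.7% and 18.4% in knockouts, against 23.5% and 35.5% in controls. In the window at its transcript start Fkbp6 was instead at 14.4% and 13.2% in knockouts, against 7.38% and 6.15% in controls.

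Genes that mark somatic testis cells by expression gave no count of such cells. The 4 Sertoli cell genes tested had mean end levels of 1.90% and 1.86% in knockouts, against 1.83% and 1.75% in controls. Of the 3 Leydig cell genes 1 was called lower by limma, Hsd3b1, at 5 CpGs. The myoid cell gene Myh11 was not called, and the blood cell gene Cd52 was called lower, at 46.0% and 53.0% in knockouts, against 91.7% and 95.2% in controls. Over all gene ends 11.5% were called lower. Of 250-bp windows at 50% or more in controls, 99.7% had both knockouts below both controls.

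**Figure D4:**
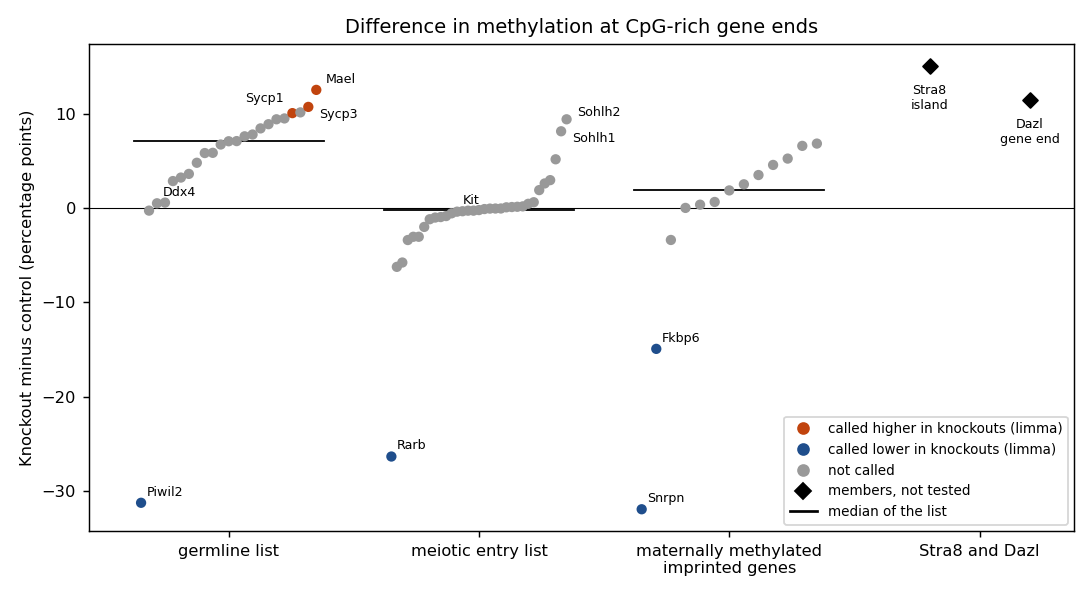
Knockout minus control difference (percentage points) at the CpG-rich ends of the germline, meiotic entry and maternally methylated imprinted lists, 1 point per gene, coloured by limma call, with a bar at each list's median and with the Stra8 island and Dazl end as untested diamonds. The germline list has its median at 7.09 points and the meiotic entry list at -0.205 points.

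By the smallest Euclidean distance over the 4 sample levels, the gene ends most like the Stra8 island were those of Jade1, Cox7b2, Cmtm2b, Ccdc152 and Olfr48, at distances of 4.15 to 5.26 points. Jade1 was at 24.9% and 15.9% in knockouts, against 5.22% and 4.71% in controls. The ends most like that of Dazl were those of Tktl2, Olfr48, Cox7b2, Dcun1d4 and Slco6c1, at 0.992 to 3.30 points. Tktl2 was at 20.4% and 13.6% in knockouts, against 8.45% and 3.84% in controls. Likeness over 4 samples from 2 groups is a weak measure, and Cox7b2 and Olfr48 were near to both genes.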

How the data were processed

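The authors deposited 1 table for the 2 knockout and 2 control samples, holding a percent methylation for every listed CpG cytosine and keeping strands apart. Its name gives a minimum of 10 reads. Per the submitters' processing notes the build was mm10. For the aligner and caller, no name is given in the sources used here. The depth behind each value is unknown, so no interval was computed, and all 37230584 listed cytosines count alike. Of these, 22421484 had a value in all 4 samples and were used unless stated. Gene names and spans came from RefSeq (GRCm38.p6) and gene starts from its promoter table. On chromosome 19, 99.8% of CpGs in that table's promoters were listed in the deposited table.

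Levels are means over cytosines. Of a gene's 2 ends, each taken as 1000 bp outside and 500 bp within the gene, the CpG-rich one has at least 2 times the CpGs of the other and 5 or more measured. Ends were tested with limma 3.58.1 (R 4.3.3, trended, robust) on log2((m + 0.01)/(1 − m + 0.01)), with Benjamini-Hochberg adjustment over all ends. The fit was also run on simulated data, but how many of the gains added to those data it called is not given here. Python 3.11.15, NumPy 2.4.6, pandas 2.3.3 and Matplotlib 3.10.9 were used. The members and gene lists were chosen with earlier results of these data known. Named genes were the members, genes in their loci, 16 fixed genes of the pathway, any other list gene that was called, and the 5 ends nearest in level to each member. Sohlh2, Rxra and Inpp5f were named after their values were seen. All 43 symbols of the meiotic entry list and all 28 of the germline list were in the gene table, Meiosin as Bhmg1. Somatic cell genes (Sertoli, Leydig, myoid, blood) and maternally methylated imprinted genes were set beside them.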

Additional observations from a re-analysis of the deposited data

How the results depend on the processing

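The differences at the Stra8 island and the Dazl end stayed positive under every alternative run. They ranged from 9.06 to 21.1 and from 7.82 to 15.2 points with 1 sample left out. In groups this small, leaving out 1 sample cannot move them by more than the SD between replicates, so those runs do not test stability against it. With all samples kept, they moved by less than that SD under all settings but 1. The exception was Stra8 in the window at its transcript start, at 3.09 points, which holds little of the island. The Stra8 run was 1500 bp long with any sample left out, 500 bp in 100-bp windows and 750 bp with a minimum of 10 points. The Dazl run was 1250 to 2000 bp with 1 sample left out and 750 bp with that minimum. The share retained outside the run at Stra8 was 58.0% with CpGs averaged over strands, 58.1% with 5 kb on either side, 44.8% from medians, and 55.8% to 59.7% with 1 sample left out. At Dazl it was 41.7% from medians and 53.9% to 55.7% with 1 sample left out.

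The meiotic entry ends called higher numbered 4 with no minimum difference and 0 to 2 with 1 sample left out. Those called lower numbered 5 and 0 to 1 under the same settings, 0 on their own spread, 0 with at least 10 CpGs and 5 in windows at transcript starts. The germline ends called higher numbered 12 with no minimum difference, 0 on their own spread, and 1 to 8 with 1 sample left out, and those called lower 0 on their own spread and 0 at transcript starts. Of all windows at transcript starts 24.2% were called lower, which is the share to set beside the 5 of 36 in the meiotic entry list. Centring samples on their medians changed none of the 4 counts of called ends. Centring together with no minimum, added after seeing the data, gave 4 higher and 4 lower in the meiotic entry list and 12 higher and 1 lower in the germline list. The mean difference of the imprinted ends was -1.38 points and turned to 2.91 points for medians over genes, and Fkbp6 turned to 7.07 points at its transcript start. The causes were not tested. With the replicate number as a block, 4 germline ends were called higher and 0 meiotic entry ends, and 1 of each list lower. The numbers mark no shared animal or batch in the labels, and the replicate difference correlated at r = 0.08 between groups over 13018 ends. Unknown depth limits every single-CpG value.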
